A study of Mus musculus with 3 samples.

Results

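The acyl-CoA thioesterase genes Acot1, Acot2, Acot3, Acot4, Acot6, Acot7, Acot8, Acot9, Acot12 and Acot13 were followed in mouse liver. A gene was taken where a probe set of the array listed its symbol alone, and the probe set with the highest mean over the 3 arrays stood for it. This gave 10 genes of 18193 on the array, read by 15 probe sets, and 2 further probe sets listed a member together with another gene. All 10 passed a filter on dim genes that kept 12735. The family was picked with the difference between Cre virus and control virus already known, and each probe set was chosen by its mean level over arrays that include the Cre array, so the differences of these 10 genes are given as a description, with no test.

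Total liver RNA came from mice on a mixed background injected intraperitoneally at 3 months of age with 400 microL of virus, and livers were taken 1 week later. The control virus, MUP-EGFP-AAV8, carries a green fluorescent protein (2 mice), and MUP-iCre-AAV8 carries the iCre recombinase, which removes floxed DNA (1 mouse). The virus names hold MUP, a name also used for the major urinary protein genes of hepatocytes; the promoter itself is not spelled out in the sources used here. The sources disagree on genotype: in the series design all mice carry floxed HNF4alpha, but in the sample labels the control mice are wild type and the mouse given Cre is an HNF4alpha knockout. Virus and any such difference in genotype cannot be told apart.

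Acyl-CoA thioesterases split fatty acyl-CoA into a free fatty acid and coenzyme A, the reverse of what acyl-CoA synthetases do. They sit in the cytosol, mitochondria and peroxisomes, where they set how much acyl-CoA is held for oxidation, lipid synthesis or signalling. Several are known targets of PPARalpha, the receptor that switches on fat oxidation in the fasting liver, and HNF4alpha, encoded by Hnf4a, is a receptor of the same superfamily that maintains hepatocyte genes.

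Values are log2 expression after the authors' RMA normalization, so a difference of 1 is 2-fold. Each array is 1 mouse, so precision is limited by the number of arrays, and every Cre value rests on 1 liver. All 4 probe sets of Hnf4a, the targeted gene, read lower after Cre virus than in either control liver, with differences from -1.18 (1421983_s_at) to -0.55 (1427001_s_at). Whether they lie in the deleted part was not analysed here. Of 5 measured hepatocyte markers, Alb, the albumin gene, was at 14.75 and 14.72 in the control livers and 14.62 after Cre virus, and 1, Apoa2, was at least 2-fold below both controls (14.45 and 14.50 against 12.67). In bulk RNA, fewer cells of a type and less RNA per cell cannot be told apart.

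Of the 10 thioesterase genes, 5 were at least 2-fold above both control livers (Acot1, Acot2, Acot3, Acot6 and Acot9) and 1, Acot12, was at least 2-fold below both. Of all 12735 fitted genes, 3.67% were as far above and 3.72% as far below. At any size, 7 members lay above both controls (49.7% of fitted genes did), 2 lay below both (33.6%) and 1, Acot7, lay between them. Acot1, Acot2 and Acot3 were at least 4-fold above both, as 0.667% of fitted genes were, and no member was 4-fold below both, as 1.59% were. Nothing is read from these shares, since the members were picked on this contrast. The median difference of the 10 genes from the control mean was 1.12, beside 0.09 over all fitted genes. The differences ran from -1.32 to 4.18. The cytosolic and the mitochondrial members included values above and below the controls, and the 4 peroxisomal members were above both on the probe sets used.

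**Figure D1:**
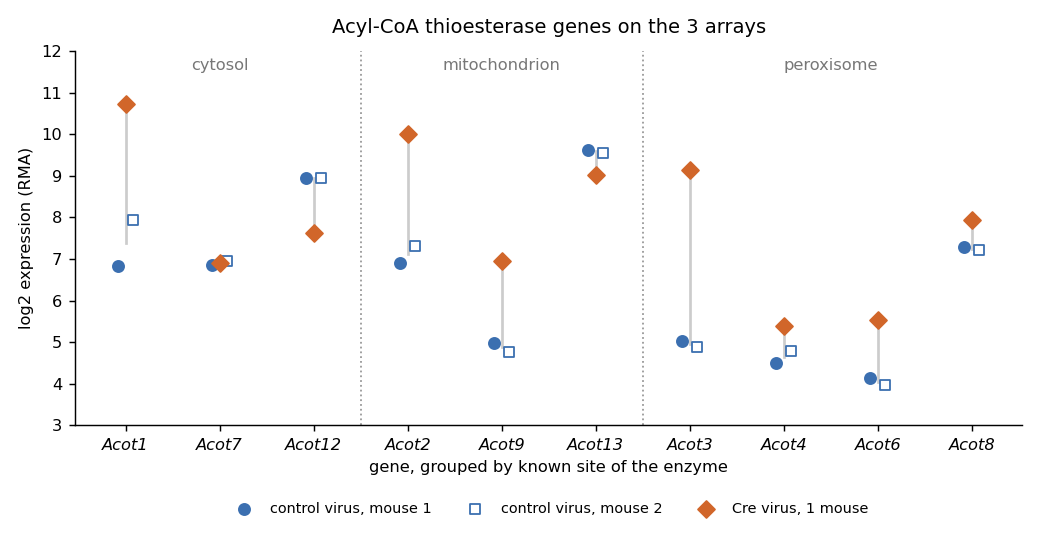
Log2 expression of each thioesterase gene on the 3 arrays, with genes grouped along the horizontal axis by the known site of their enzyme; blue circles and squares are the control mice, orange diamonds the Cre mouse, and the grey line joins the control mean to the Cre value. Acot1, Acot2, Acot3, Acot6 and Acot9 lie above both controls by at least 1 log2 unit, and Acot12 lies below both by more than 1.

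Among the cytosolic enzymes, Acot1 hydrolyses long-chain acyl-CoA. It was at 6.82 and 7.95 in the control livers, against 10.73 after Cre virus, 10.2-fold above the control mean (3.35). The Cre value stood clear of both controls, but the controls lay 1.14 apart, a gap that only 60 of the 12735 fitted genes (0.471%) matched or passed. Against control 1 the Cre liver was 15.1-fold higher and against control 2 it was 6.89-fold higher, so the size of the Acot1 difference depends on the control liver.

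Acot7 encodes a cytosolic long-chain thioesterase best known from brain. It was at 6.85 and 6.96 in the control livers, against 6.91 after Cre virus; the Cre value lay between the controls.

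Acot12, a cytosolic enzyme of liver that splits acetyl-CoA into acetate and coenzyme A, went the other way. It was at 8.95 in both control livers, against 7.63 after Cre virus, 2.49-fold lower (-1.32). The controls were equal to 2 decimals, a gap that 98.2% of fitted genes matched or passed. A second probe set, 1419395_at, was at 7.79 and 7.90 against 6.92 (-0.93). The third, 1433064_at, was at 2.77, 2.62 and 2.99, never reaching the filter value of 3.77, and it pulled the mean of the Acot12 probe sets to -0.65.

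The mitochondrial members split as well. Acot2, a long-chain thioesterase of the mitochondrial matrix and close relative of Acot1, was at 6.91 and 7.32 in the control livers, against 10.01 after Cre virus, 7.44-fold higher (2.89). Its second probe set, 1422996_at, rested near the filter value in the controls (4.11 and 3.98) and was at 6.36 in the Cre liver (2.31). Both probe sets thus put the Cre liver well above both controls, and the dimmer of them showed no higher value in control 2.

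Probe set 1422997_s_at, which the platform lists for Acot2 and Acot1 together, was at 6.56 and 7.41 in the control livers, against 10.28 after Cre virus (3.29). Its control gap lay between those of the Acot1 and Acot2 probe sets. Because these genes are close in sequence, signal of Acot1 and Acot2 may be shared by probes of either.

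Acot9, a thioesterase of the mitochondrial matrix that acts on short-chain and long-chain acyl-CoA, was at 4.98 and 4.77 in the control livers, against 6.96 after Cre virus, 4.24-fold higher (2.08). Probe set 1449968_s_at, listed for Acot10 and Acot9 together, was at 4.78 and 4.38 against 6.45 (1.87). The Cre liver stood above both controls by at least 1.67 on either probe set. Acot10 had no probe set of its own among those used.

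Acot13, also known as Them2, is associated with mitochondria and binds phosphatidylcholine transfer protein. It was at 9.63 and 9.56 in the control livers, against 9.03 after Cre virus, 1.48-fold lower (-0.57). The Cre value was below both controls, whose gap was 0.07 in size (control 2 minus control 1, -0.07).

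The peroxisomal members held the largest difference of the family. Acot3, a peroxisomal thioesterase for medium-chain to long-chain acyl-CoA, was at 5.03 and 4.89 in the control livers, against 9.13 after Cre virus. That is 18.1-fold above the control mean (4.18) and rank 8 from the top among 12735 genes. Against each control it was 17.2-fold and 19-fold higher, and the controls were 0.14 apart (-0.14, control 2 minus control 1). Its only probe set, 1422925_s_at, has a suffix used for sets that can read several transcripts, so other members of the cluster may add to its signal.

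Acot4 encodes the peroxisomal thioesterase for succinyl-CoA and other dicarboxylyl-CoA. It was at 4.49 and 4.79 in the control livers, against 5.39 after Cre virus, 1.69-fold higher (0.75) and above both, though not by 2-fold. Its other probe set, 1422077_at, was at 3.51 and 4.02 in the control livers, against 3.85 after Cre virus, between them, so the higher Acot4 value was seen on 1 of its 2 probe sets.

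Acot6, whose mouse enzyme is peroxisomal and acts on branched-chain acyl-CoA, was read in opposite directions. Probe set 1428803_at was at 4.14 and 3.96 in the control livers, against 5.54 after Cre virus, 2.81-fold higher (1.49). Probe set 1460388_at was at 3.94 and 3.76 in the control livers, against 3.21 after Cre virus (-0.65), and their mean gave a difference of 0.42. Both sets lay near the filter value of 3.77 in the controls, and the Acot6 count among the 5 higher genes rests on the first of them.

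Acot8, a peroxisomal thioesterase of broad substrate range, was at 7.29 and 7.21 in the control livers, against 7.94 after Cre virus, 1.62-fold higher (0.70). The Cre value was above both controls, which differed by 0.08 in size (-0.08, control 2 minus control 1).

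**Figure D2:**
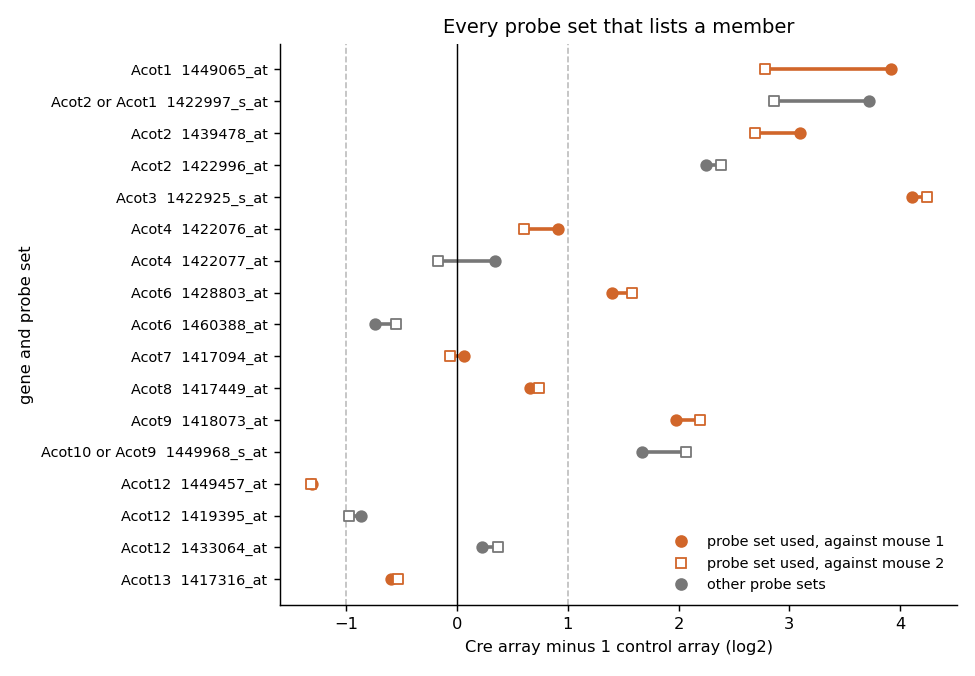
The Cre array minus each control array (log2, horizontal axis) for every probe set that lists a member; filled circles are against control mouse 1, open squares against control mouse 2, orange marks the probe set used for the gene, grey the others, and dashed lines mark 1 log2 unit. The sets of Acot2, and those listing Acot1 with Acot2 or Acot9 with Acot10, lie to the right with their gene, whereas those of Acot6 lie on opposite sides of 0.

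Acot1, Acot2, Acot3, Acot4 and Acot6 are tandem relatives on mouse chromosome 12. In RefSeq's gene order for GRCm38.p6 the run reads Acot2, Acot1, Acot4, Acot3, Acot5 and Acot6, 6 genes with no other protein-coding gene among them. Acot5, a peroxisomal relative that is not counted as a member, was at 2.89 and 2.77 in the control livers, against 2.70 after Cre virus, below the filter value throughout. Along the run the differences were 2.89, 3.35, 0.75, 4.18, -0.13 and 1.49, so neighbours differed in size.

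Of the 5 protein-coding genes on each side of this run, 8 had a probe set that lists them alone, and their differences ran from -0.47 (Numb) to 0.39 (Mideas). None of these 8 was 2-fold above or below both controls. Papln, Heatr4, Pnma1 and Gm31513 among them lay below the filter value on all arrays, so a lower value could hardly show there. Of all fitted genes, only 3.67% were as far above both controls and 3.72% as far below, so most genes would look as flat. Whether the differences were confined to the run was not tested. Riox1, on the Acot2 side, was at 6.03 and 6.21 in the control livers, against 6.41 after Cre virus. Dnal1, next to Acot6, was at 4.01 and 3.96 against 3.85.

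**Figure D3:**
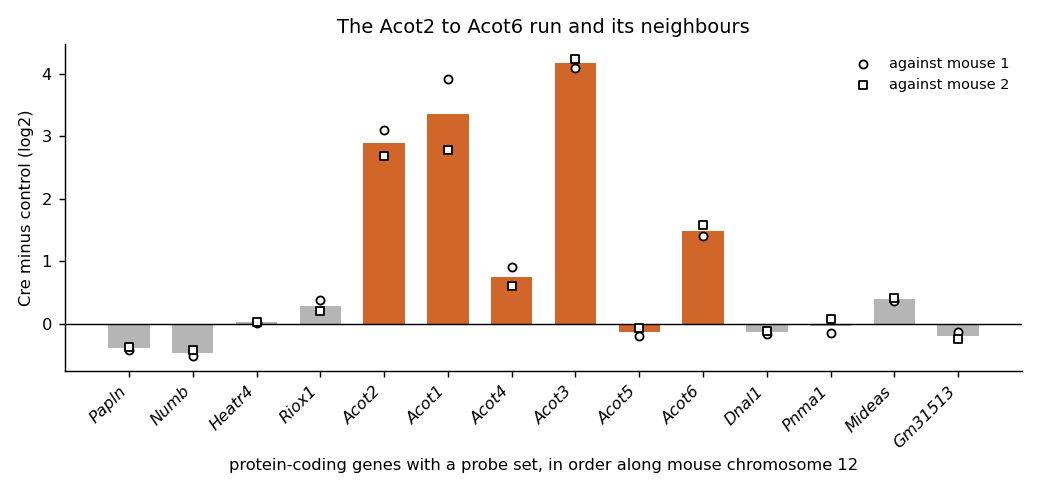
Bars give the Cre value minus the control mean (log2) for protein-coding genes with a probe set, in their order along mouse chromosome 12; open circles and squares are the differences from control mouse 1 and 2, orange bars are Acot genes and grey bars their neighbours. Acot2, Acot1 and Acot3 stand at 2.89 or more, Acot5 is at -0.13, and the flanking genes stay between -0.47 and 0.39. Acot5, Papln, Heatr4, Pnma1 and Gm31513 lay below the filter value on all arrays.

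The bases before the starts of Acot2, Acot1, Acot4 and Acot3, in their order along the chromosome, are shown because these neighbours differ in how far they moved, with Acot12 added as the member that was lower. Sequences are RefSeq's of build GRCm38.p6, on the plus strand, 250 bases up to the base before the start, and a window was held for 8 of the 10 members. They lie at chr12:83987611-83987860 for Acot2, chr12:84009252-84009501 for Acot1, chr12:84038129-84038378 for Acot4, chr12:84051894-84052143 for Acot3, and chr13:91741271-91741520 for Acot12. Acot3 has a second start 7 bases further on. Capitals mark AGGTCA, the element of many nuclear receptors, and CCAAT, the box read by NF-Y, on either strand.
Acot2: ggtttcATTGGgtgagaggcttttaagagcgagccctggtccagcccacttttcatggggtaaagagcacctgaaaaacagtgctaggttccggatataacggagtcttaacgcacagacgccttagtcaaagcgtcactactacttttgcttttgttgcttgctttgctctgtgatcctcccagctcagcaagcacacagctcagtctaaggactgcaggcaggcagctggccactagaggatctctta
Acot1: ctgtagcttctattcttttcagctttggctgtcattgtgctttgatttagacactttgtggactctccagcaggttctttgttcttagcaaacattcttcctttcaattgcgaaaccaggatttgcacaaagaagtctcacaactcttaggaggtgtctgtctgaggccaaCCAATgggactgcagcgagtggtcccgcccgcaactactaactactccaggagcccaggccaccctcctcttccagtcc
Acot4: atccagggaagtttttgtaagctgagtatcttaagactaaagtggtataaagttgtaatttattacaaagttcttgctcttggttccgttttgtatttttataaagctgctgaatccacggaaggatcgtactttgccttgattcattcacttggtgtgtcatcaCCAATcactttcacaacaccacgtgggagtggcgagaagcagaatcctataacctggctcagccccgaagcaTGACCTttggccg
Acot3: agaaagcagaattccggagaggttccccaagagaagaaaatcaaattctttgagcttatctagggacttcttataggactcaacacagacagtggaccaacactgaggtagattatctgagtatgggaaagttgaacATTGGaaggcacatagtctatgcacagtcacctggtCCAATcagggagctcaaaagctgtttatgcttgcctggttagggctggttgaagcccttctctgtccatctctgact
Acot12: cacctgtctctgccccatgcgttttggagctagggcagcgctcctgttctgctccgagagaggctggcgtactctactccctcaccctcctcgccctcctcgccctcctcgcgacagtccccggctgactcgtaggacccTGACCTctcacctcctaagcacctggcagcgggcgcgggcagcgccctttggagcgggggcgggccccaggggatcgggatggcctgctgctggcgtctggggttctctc

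AGGTCA stood in the windows of Acot4, 13 bases before the start, and Acot12, 110 bases before it, and in 14% of the 32851 windows of the table. CCAAT stood in those of Acot1 (79 bases before the start), Acot2 (244), Acot3 (113 and 77), Acot4 (85), Acot8 and Acot9, 6 members, and in 33.8% of all windows. TATAAA was found for Acot4 and Acot9 and in 12.4% of windows. The HNF4 core CAAAGTCCA, in 0.384% of windows, and the direct repeat AGGTCANAGGTCA, in 0.0335%, both searched on either strand, matched no member within these 250 bases. The direct repeat holds AGGTCA, so these searches overlap. A match or its absence describes only these letters in this window.

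The gap between the control livers differed among the members that were higher in the Cre liver. Control 2 was above control 1 for Acot1 (1.14), Acot2 (0.41) and Acot4 (0.31). It was below control 1 for Acot3 (-0.14), Acot6 (-0.17), Acot8 (-0.08) and Acot9 (-0.21). Over all fitted genes the median size of this gap was 0.15. The 10 measured genes of a list of PPARalpha and its known targets were all higher in control 2, by a median of 0.64, among them Cyp4a14 (1.01), Plin2 (0.86), Cd36 (0.85) and Pdk4 (0.62). Of all fitted genes, 52.5% were higher in control 2. So were 15 of 17 fitted genes of mitochondrial beta-oxidation and 10 of 14 acyl-CoA synthetases. The other lists held 8 of 14 in peroxisomal beta-oxidation, 7 of 11 in coenzyme A genes and 4 of 8 other thioesterases and relatives. The part of this contrast between the control livers in the Acot1 difference was not tested.

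**Figure D4:**
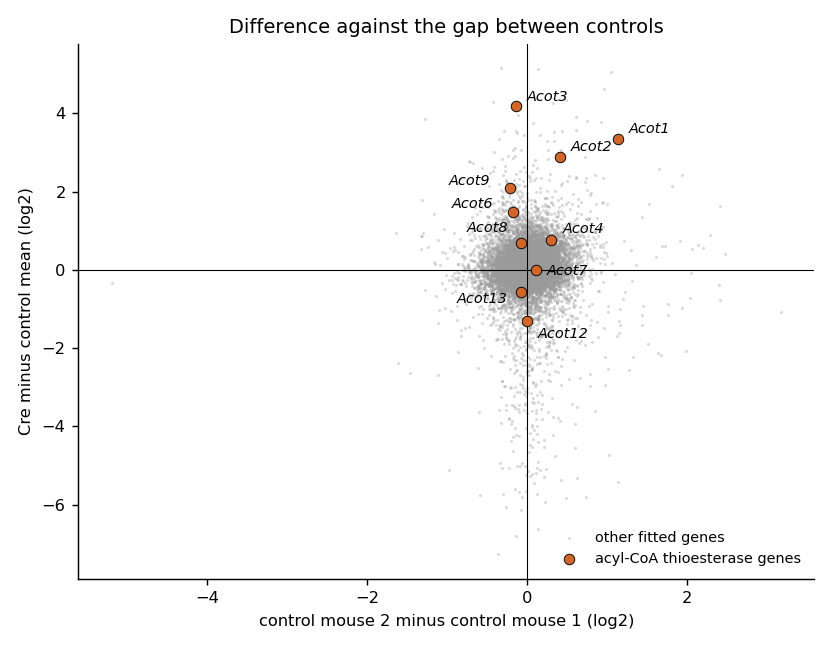
Each point is a fitted gene, placed by control mouse 2 minus control mouse 1 (log2, horizontal) and by the Cre value minus the control mean (log2, vertical); orange points are the thioesterase genes and grey points the other fitted genes. Acot1 lies far to the right at 1.14, whereas Acot3 has the larger difference (4.18) with controls 0.14 apart.

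The genes around these enzymes were read from lists that hold no member, with limma's test across all 12735 genes (lmFit and eBayes with an intensity trend, Benjamini-Hochberg adjusted p under 0.05, two-sided). This fit assumes that the lone Cre array varies like the controls. Over all genes 6.71% passed as higher and 5.21% as lower. The lists too were chosen with earlier results of these data known.

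Other thioesterases and relatives were mostly not past the threshold, with 0 of 8 fitted genes higher and 1 lower by limma (median -0.33). At an unadjusted limma p under 0.05 the counts were 2 and 2. The 1 that fell was Baat, a relative of the Acot1 group that conjugates bile acids, at 9.34 and 9.50 in the control livers, against 4.31 after Cre virus (-5.11 ± 0.15 SE, limma adjusted p = 0.0011). Acot11, also called Them1 and a known brake on brown fat heat production, was at 6.79 and 6.07 against 5.82 (-0.61 ± 0.34 SE, limma adjusted p = 0.302). Them4, a mitochondrial thioesterase, was at 7.75 and 7.63 against 6.98 (-0.71 ± 0.14 SE, limma adjusted p = 0.0543). Acnat2, a peroxisomal acyltransferase of the same family as Baat, was at 6.25 and 5.35 against 7.52 (1.72 ± 0.41 SE, limma adjusted p = 0.0733). Olah, which releases fatty acids from fatty acid synthase, did not reach the filter value on any array. Them5, Them6, Ppt1 and Ppt2 differed by -0.43 to 0.51. How many genes of this list passed, higher or lower, also depended on the settings of the processing.

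The acyl-CoA synthetases, which make the substrate of the thioesterases, leaned lower, with 6 of 14 fitted genes lower and 1 higher (median -0.61; 7 lower and 2 higher at an unadjusted p under 0.05). Under other settings of the processing, 4 to 7 were called lower. Slc27a5, which activates bile acids and long-chain fatty acids, fell from 12.67 and 12.79 to 7.66 (-5.07 ± 0.11 SE, limma adjusted p = 0.00107). Acss2, which makes acetyl-CoA from acetate and so runs opposite to Acot12, fell from 9.79 and 10.41 to 8.30 (-1.80 ± 0.29 SE, limma adjusted p = 0.0336). Acsm1, of the medium-chain synthetases, fell by 1.63. Acsl4, which prefers arachidonic acid, was the 1 that rose, from 8.26 and 8.61 to 10.44 (2.00 ± 0.19 SE, limma adjusted p = 0.012).

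Of 11 genes of coenzyme A synthesis and breakdown, 2 rose and none fell by limma (median 0.00; 3 higher and 1 lower at an unadjusted p under 0.05). These were Vnn1, a pantetheinase (1.74 ± 0.25 SE, limma adjusted p = 0.0282), and Nudt19, a peroxisomal hydrolase of coenzyme A (2.83-fold, limma adjusted p = 0.00892). Nudt7, the related peroxisomal hydrolase of liver, was at -0.45, and the kinases that start coenzyme A synthesis, Pank1 to Pank4, differed by -0.29 to 0.40 without passing.

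In peroxisomal beta-oxidation, the pathway beside Acot3, Acot4, Acot6 and Acot8, 4 of 14 fitted genes rose and 1 fell (median 0.29; 6 higher and 2 lower at an unadjusted p under 0.05). Ehhadh, the bifunctional enzyme, rose from 10.43 and 10.40 to 13.04 (2.63 ± 0.10 SE, limma adjusted p = 0.00144), and its control livers, like those of Acot3, lay close together. Pex11a, which divides peroxisomes, rose by 1.73, Ech1 by 1.31 and the carnitine transferase Crot by 0.80, whereas Scp2 fell by 0.51. Without the filter, or with eBayes run without a trend, 2 genes of the list were called higher and none lower. The 1 lower call was also lost when probe sets were averaged and when those with the suffixes _s_at, _x_at or _a_at were left out. In mitochondrial beta-oxidation, beside Acot2, Acot9 and Acot13, 8 of 17 genes rose and none fell by limma (median 0.71; 13 higher and 0 lower at an unadjusted p under 0.05), with Decr1 at 1.44, Eci1 at 1.28, Hadha at 1.10 and Cpt2 at 1.03. Other settings called 5 to 10 of them higher.

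Among PPARalpha and its known targets, 3 of 10 rose and 1 fell (median 0.80; 5 higher and 3 lower at an unadjusted p under 0.05). The higher calls ranged from 1 without the filter to 5 after quantile normalization or median centring, and the lower calls from 1 to 3. Pdk4, which restrains glucose oxidation, was at 3.90 ± 0.30 SE, the fatty acid hydroxylase gene Cyp4a14 at 3.10 ± 0.44 SE and the uptake gene Cd36 at 2.43 ± 0.38 SE, with limma adjusted p values of 0.00717, 0.0275 and 0.0332. Fabp1, a fatty acid binding protein gene, was 2.84-fold lower (limma adjusted p = 0.00921). Ppara itself was lower without passing, at 9.26 and 9.96 in the control livers, against 8.03 after Cre virus (-1.58 ± 0.32 SE, limma adjusted p = 0.054). The higher values of Acot1, Acot2 and Acot3 stood beside a Ppara value below both controls. Whether PPARalpha had a part in them was not tested. Of the other list genes that did not pass, Plin2 (1.68) and Fgf21 (1.44) were above both controls and Creb3l3 (-0.55) was below both. Angptl4 (0.16) and Cyp4a12a (-0.18) lay between the controls.

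**Figure D5:**
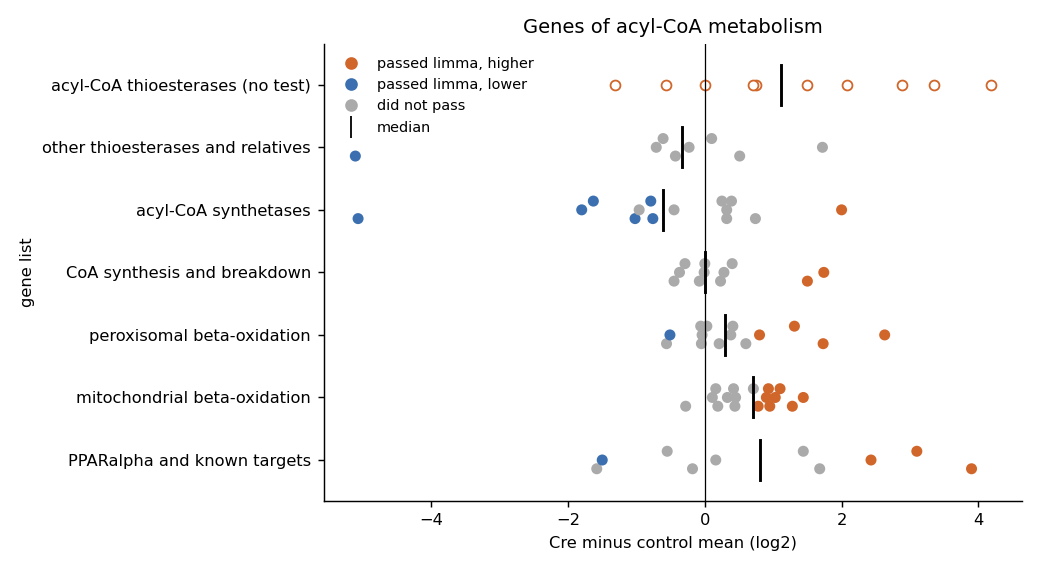
The Cre value minus the control mean (log2) for the thioesterase genes (open circles, no test) and for the fitted genes of 6 lists of acyl-CoA metabolism; orange points passed limma's test as higher, blue as lower, grey did not pass, and black bars are medians. The synthetases have a median of -0.61 and the mitochondrial beta-oxidation genes of 0.71, and the thioesterase genes spread from -1.32 to 4.18.

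Genes with the most similar pattern were sought for the members at either end, by Euclidean distance over the 3 arrays after subtraction of the control mean, among fitted genes within 1 log2 unit of the member's control mean. For Acot3, among 4887 genes, these were Cyfip2 (distance 0.21), Defb1 (0.34) and Rcan2 (0.47), with differences of 3.97, 4.27 and 4.34. For Acot12, among 2264 genes, they were Klf12 (0.02), Qprt (0.04) and Lurap1l (0.05), with differences of -1.33, -1.29 and -1.27. With 3 arrays this likeness says only that the sizes are similar.

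Markers of other cells differed in part alongside these values. The 7 Kupffer cell and macrophage markers summed to 9.82 and 10.43 on the log2 scale for the control livers and 10.78 after Cre virus, and 1 of them, Marco, was at least 2-fold above both. The 5 measured cholangiocyte markers summed to 5.96 and 6.22 against 7.26. Of them only Sox9 was at least 2-fold above both (3.87 and 4.82 against 6.69), so the higher sum rests mainly on it. Epcam differed by 0.28, and Krt19 was below both controls (3.72 and 3.79 against 3.59). Krt7 (3.34 and 3.13 against 3.26) and Cftr (2.28 and 1.88 against 2.14) lay below the filter value on all arrays. The 7 stellate cell and 7 endothelial cell markers held none past 2-fold, nor did those of lymphocytes, neutrophils, adipocytes or muscle. The part of other cells in the thioesterase values was not tested.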

How the data were processed

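Liver RNA of 3 mice was measured on 1 single-colour oligonucleotide array each. The authors deposited log2 values for each probe set, computed by RMA in Partek 6.5, per the submitters' processing notes. No source used here names the log base; the range, 1.586 to 15.048, is that of log2 values, and every fold rests on this reading. RMA equalises arrays and compresses differences near background. Genes came from the platform annotation, with symbols updated by Entrez ID (GRCm38.p6 table, names and order only).

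Of 45101 probe sets, 34945 listed 1 gene. The brightest by mean over the 3 arrays stood for each of 18193 genes, and the 12735 genes whose mean reached the 30th percentile (3.77) entered limma 3.58.1 in R 4.3.3 (1 residual and 3.18 prior degrees of freedom). The fit was tested on simulated data, where 0.5% of 2-fold and 58.1% of 4-fold changes were recovered. Far fewer genes were changed there than limma called on the deposited arrays. That makes the adjusted threshold stricter in the simulation, so its shares do not carry over. On the deposited arrays some list genes passed at less than 2-fold, such as Crot (0.80) and Scp2 (-0.51). Acnat2 (1.72) did not pass, so a gene that did not pass may still differ by 2-fold or more. Members and lists were chosen with earlier results of these data known, so members were not tested: a member counted as higher or lower where the Cre value was at least 1 log2 unit beyond both controls. Named genes were all members, up to 4 largest passing genes of each list and list genes needed to describe it. The 3 nearest genes in pattern to the highest and lowest member were also named. Scp2, Alb, Apoa2, Marco, Sox9, Epcam, Krt7, Krt19, Cftr and the neighbours on chromosome 12 were named after their values were seen. CCAAT was added to the motifs after the sequences were seen. The labels call the controls biological replicates. Alternatives were each control left out, other rules for probe sets, scaling, filters, moderation and fold thresholds. Figures used matplotlib 3.10.9.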

Additional observations from a re-analysis of the deposited data

How the results depend on the processing

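The count of thioesterase genes at least 2-fold above both controls was 5 and ranged from 4 to 7 over other probe set rules, other scalings and a 1.5-fold threshold; at 4-fold it was 3 (Acot1, Acot2 and Acot3). The count below was 1 (Acot12), and 0 as the mean of probe sets and at 4-fold. Leaving out a control can only relax this rule, so those counts (5 and 1) do not bear on stability. Averaged probe sets gave 0.42 for Acot4, 0.42 for Acot6 and -0.65 for Acot12, and without the suffixes _s_at, _x_at and _a_at Acot3 had no value.

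List genes called lower by limma were 9, between 6 without a filter or without trend and 15 after quantile normalization, and those called higher were 18, between 12 and 25. Over all genes limma called 855 higher, between 446 without a filter and 1210, with 471 without those suffixes. It called 663 lower, between 452 and 1007 after quantile normalization. The causes were not tested. With a control left out limma could not be fitted, since no residual degree of freedom remains. No paired analysis was possible because the sample titles pair no control mouse with the Cre mouse and the Cre virus group has 1 sample. Members near the filter value (Acot4, Acot6) are limited by signal over background. The control means of Acot9 (4.87) and Acot3 (4.96) were little above that of Acot4 (4.64), so their folds share this limit on the control side.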
